A study of Homo sapiens with 8 samples.

Results

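The 47 genes described here encode the machinery of DNA replication: the proteins that license origins, the replicative helicase and its activators, the DNA polymerases with primase, the sliding clamp and its loader, the enzymes that supply deoxynucleotides, and the regulators and chromatin factors that act with them. They were taken by symbol from a list of names, not by their values, and all 47 had 1 row each among the 23562 rows of the count table. The experiment used a human cell line derived from acute myeloid leukemia, OCI-AML5. The sgCEBPD group held 4 RNA-seq libraries from cells given guides against CEBPD in lentiCRISPRv2, a lentivirus that delivers Cas9 together with its guide RNA (sgCEBPD 1 to 4). The sgControl group held 4 libraries from cells given the same vector with guides of no specific target (sgControl 1 to 4). Both groups shared the vector and Cas9. The labels number the guides 1 to 4 in each group, 1 to a library, so differences between guides cannot be told apart from differences between libraries. The library names carry a further number, and the same numbers recur in both groups in the order of the guides. Whether libraries that share a number were handled together is not stated, and the main tests do not pair them. The last digit of the library names does not follow that order. It differs from the rest in sgControl 1 and sgCEBPD 4, and its meaning is not stated. The time after transduction, and whether cells were cloned, are not stated in the labels. CEBPD encodes the transcription factor C/EBP delta, and the comparison asks how the replication transcripts stand when its gene is targeted.

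DNA replication runs in ordered steps. The origin recognition complex (ORC), CDC6 and CDT1 load the ring of MCM2 to MCM7 onto DNA in G1, and geminin (GMNN) blocks CDT1 once S phase has begun. MCM10, CDC45 and the GINS complex then turn the ring into an active helicase, and polymerases alpha, delta and epsilon copy the strands with the PCNA clamp. Many of these genes are textbook targets of the E2F transcription factors, which drive entry into S phase. Dividing leukemia cells transcribe them at high levels, and they are turned down when myeloid cells leave the cell cycle to mature.

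Library totals lay between 10217751 and 11521209 counts, and the lowest count of any member in any library was 69. Among controls the median coefficient of variation of a member was 5.72%. In 8 members, MCM2, GINS3, GINS4, POLA2, PRIM1, POLD1, RRM2 and CCNE2, over 10% of the merged exon length overlaps exons of another gene, and the labels do not say whether counting used strand. Levels are given as CPM, counts scaled to the TMM-adjusted library size. CEBPD itself stood at 107, 209, 195 and 164 CPM in sgCEBPD 1 to 4, against 216, 204, 205 and 202 CPM in sgControl 1 to 4. A transcript level does not report the edit or the amount of protein. The library sgCEBPD 3 stood apart. On the first principal component, with 56.4% of the variance, it scored 95.5, against -21.3 to 0.77 in the other 7 libraries. It is therefore given by itself throughout, and fold changes between the groups are given with and without it. CDKN2A, the p16 and ARF gene, had 0 counts in sgCEBPD 3, against 503 to 589 counts in the other 7 libraries, and CD3D, a T cell receptor subunit gene, stood at 52.7 CPM there, against 0 to 0.459 CPM in the others. Both were picked after their values were seen. The labels give OCI-AML5 for all 8 libraries, and whether the cells of sgCEBPD 3 were of the same stock as the rest was not tested, so each ratio of sgCEBPD 3 describes the library under that label. Its summed level of 12 monocyte and macrophage markers with a row, of 14 listed, was 1098 CPM, against 534 to 699 CPM in sgCEBPD 1, 2 and 4 and 550 to 595 CPM in sgControl, and 11 of the 12 were higher than in all other libraries. For 7 of 11 neutrophil maturation markers the sum was 611 CPM, against 227 to 298 CPM in sgCEBPD 1, 2 and 4 and 343 to 363 CPM in sgControl, with 4 of the 7 above and 1 below all other libraries and 2 under 1 CPM throughout. For 6 of 8 stem and progenitor markers it was 290.2 CPM, against 334 to 449 CPM in sgCEBPD 1, 2 and 4 and 308 to 444 CPM in sgControl, with 3 of the 6 below and 2 above all other libraries. Its 6 lymphocyte markers of 8 summed to 68.5 CPM, against 5.53 to 7.95 CPM in sgCEBPD 1, 2 and 4 and 9.30 to 10.5 CPM in sgControl, with 4 of the 6 above all other libraries. The 3 megakaryocyte markers of 5 summed to 59.2 CPM there, against 25.1 to 37.98 CPM in sgCEBPD 1, 2 and 4 and 17.9 to 39.3 CPM in sgControl, with all 3 above all other libraries. Erythroid markers (2 of 8) and fibroblast and epithelial markers (3 of 6) summed to under 2 CPM in every library. No marker with a row was at 0 in all 8 libraries.

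Replication transcripts of sgCEBPD 1, 2 and 4 lay close to the controls, and those of sgCEBPD 3 lay well below them. Summed over the 47 members, the level was 6689.8 CPM in sgCEBPD 1, 6476 CPM in sgCEBPD 2, 4172 CPM in sgCEBPD 3 and 6118 CPM in sgCEBPD 4, against 6407, 6110.1, 6620.4 and 6620.4 CPM in sgControl 1 to 4. As a log2 ratio to the control mean, the median member stood at 0.047, 0.019, -0.68 and -0.053 in sgCEBPD 1 to 4, against 0.0075, -0.079, 0.042 and 0.026 in sgControl 1 to 4. sgCEBPD 3 held the lowest of the 8 values in 40 members, and no other library held more than 2.

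**Figure D1:**
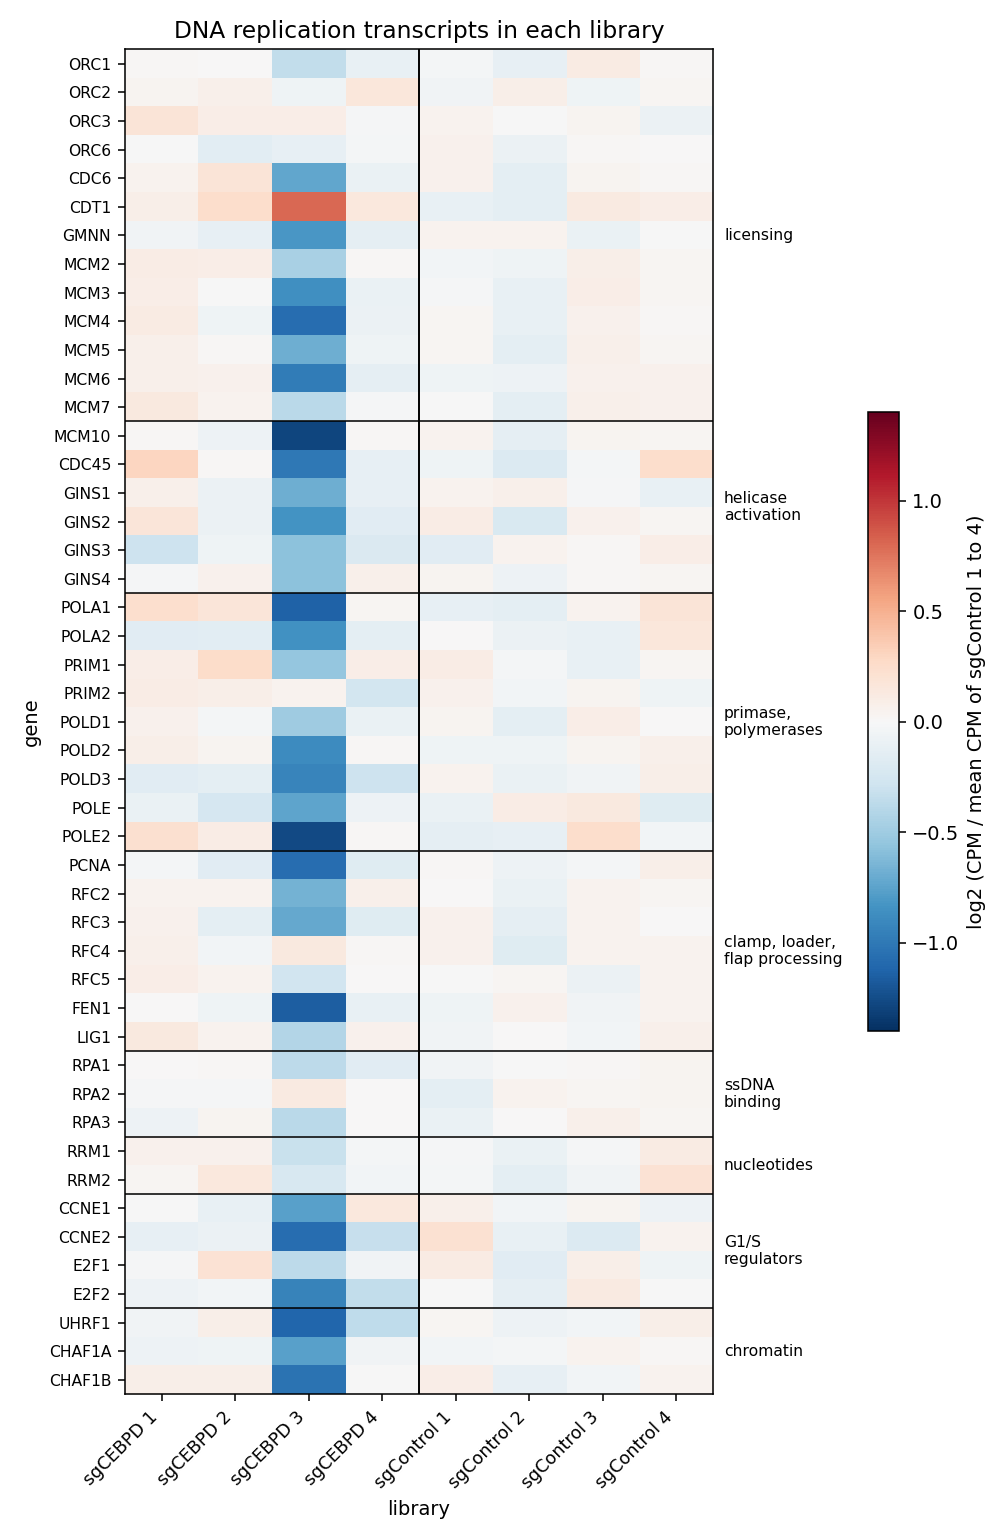
Level of each of the 47 members (rows, grouped by role) in each library (columns), as the log2 ratio of its CPM to the mean CPM of sgControl 1 to 4; blue is lower and red is higher. The column of sgCEBPD 3 is mostly blue, with CDT1 the strongest red cell, and the other sgCEBPD columns are pale like the controls.

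Across all 8 libraries, no member passed the threshold of an adjusted p under 0.05 in edgeR's quasi-likelihood test, where 0.0795% of the 13838 genes tested were called. The lowest adjusted p among the members was 0.45, and no member had an unadjusted p under 0.05, against 11.4% of all genes. DESeq2 also called 0 members, against 2.12% of all genes, with 1 member at an unadjusted p under 0.05. limma-voom called 0, against 0.0939% of all genes, with 0 members at an unadjusted p under 0.05. Of the 47 log2 fold changes (sgCEBPD over sgControl), 40 were negative, against 50% of all genes, and their median was -0.13, against 0.00029 for all genes. That lean came with sgCEBPD 3: without it, 23 of 47 were negative, against 49.7% of all genes, and the median was 0.0014, against 0.0011.

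Without sgCEBPD 3, edgeR again called 0 members, while 2.01% of the 14047 genes tested were called. Their lowest adjusted p was 0.192. POLD3 and PCNA had an unadjusted p under 0.05, which 15.5% of all genes had. DESeq2 and limma-voom called 0 members there, against 4.24% and 1.55% of all genes, each with 1 member at an unadjusted p under 0.05. The fold changes of the 47 members ran from -0.19 to 0.16 on the log2 scale, and all 47 of their 95% intervals lay within 0.5 of zero, from -0.44 at the lowest to 0.36 at the highest. With all 8 libraries only 21 of 47 intervals were that narrow, beside 6760 of all 13838 genes tested. Without sgCEBPD 3 such an interval was held by 8925 of the genes tested in both comparisons. The median standard error (SE) of the members was 0.15 with 8 libraries and 0.066 without sgCEBPD 3, beside 0.15 and 0.10 for all genes. In 3 members, POLA2, POLD3 and CHAF1A, every sgCEBPD library lay below every control, with or without sgCEBPD 3. Among all genes tested, 9.59% did not overlap between the groups with 8 libraries and 14.4% without sgCEBPD 3.

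**Figure D2:**
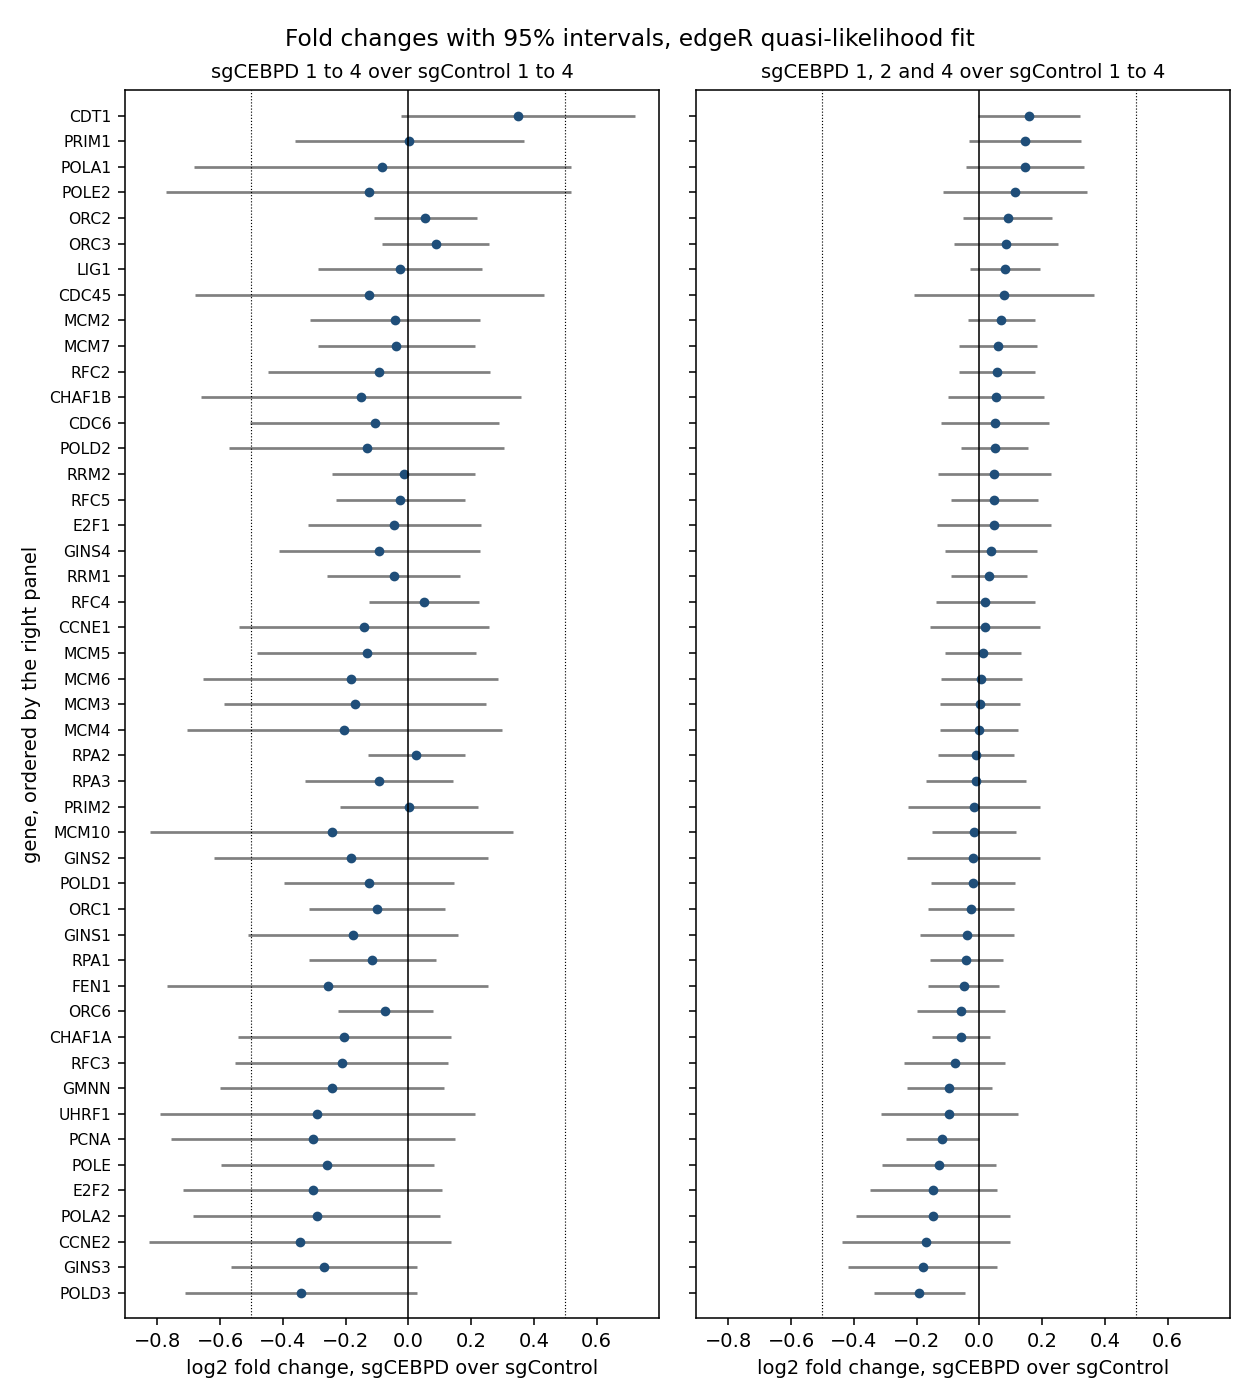
Log2 fold change of each member, sgCEBPD over sgControl, from edgeR (points) with its 95% interval (lines), for all 8 libraries (left) and without sgCEBPD 3 (right); dotted lines mark 0.5 on either side of zero. All 47 intervals on the right lie between -0.44 and 0.36, and those on the left are mostly wider and lean to the negative side.

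In sgCEBPD 3 the median member stood at 61.9% of the mean of sgCEBPD 1, 2 and 4 (log2 ratio -0.69) and at 62.3% of the control mean, against 99.5% and 98.7% for all genes tested. At least 1.5-fold below sgCEBPD 1, 2 and 4 were 28 of 47 members (59.6%), against 16.9% of all genes, and 1 member, CDT1, was at least 1.5-fold above, against 16.7% of all genes. Below all other 7 libraries were 40 members, against 34.9% of all genes. CDT1, RFC4 and RPA2 lay above all of them, against 34.8% of all genes, and ORC2, ORC3, ORC6 and PRIM2 lay within their range. A single library has no replicate check, so these are descriptions of that library and carry no test. In a bulk sample, fewer replicating cells and less of each transcript per cell cannot be told apart. The marker levels given above moved with these ratios, and their part in them was not tested.

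**Figure D3:**
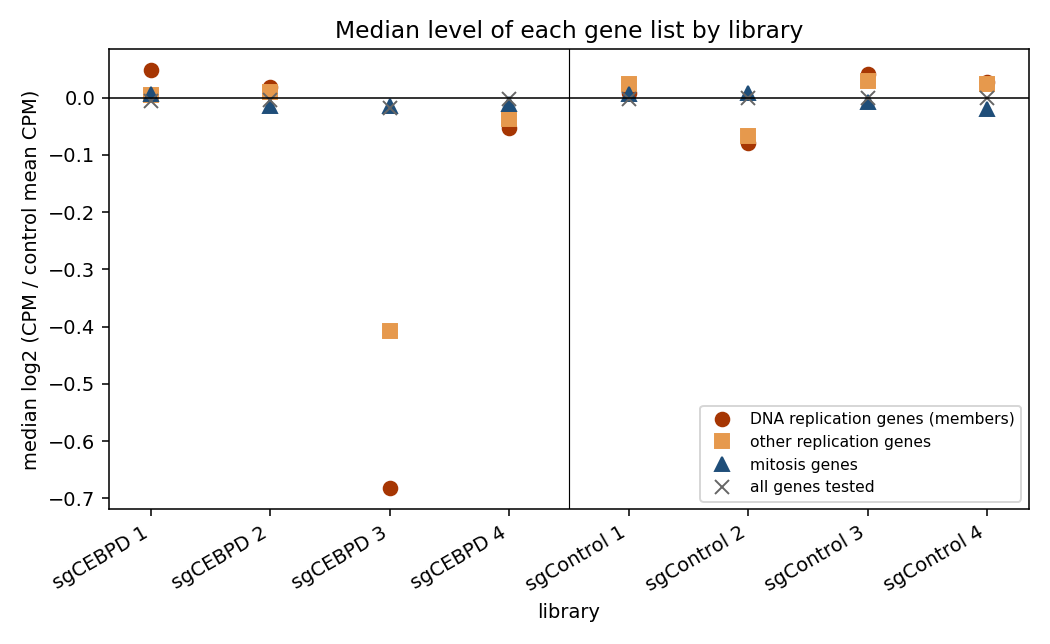
Median log2 ratio to the control mean (vertical axis) over the 47 members, the other replication genes, the mitosis genes and all genes tested, in each library (horizontal axis). The members stand at -0.68 and the other replication genes at -0.41 in sgCEBPD 3, and the mitosis genes stand at -0.015 there.

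The promoters of the members were read for short motifs, from 250 bases before to 50 bases after the RefSeq start (GRCh38.p14). Such a window was at hand for 40 of the 47 members. An E2F word was counted as TTTCCCGC, TTTCGCGC, TTTGCCGC or TTTGGCGC on either strand. It stood in 21 of 40 member promoters (52.5%), in 15 of 45 of the other replication genes (33.3%), in 3 of 20 mitosis genes (15.0%) and in 6.73% of the 9922 tested genes with a window. The cell-cycle homology region word TTTGAA, known from mitotic promoters, stood in 1 of 40 members (2.5%), 15 of 20 mitosis genes (75%) and 13.3% of tested genes. CCAAT, the core of the NF-Y site, stood in 25 of 40 members (62.5%) and 42.8% of tested genes. It stood in 25 of 45 of the other replication genes (55.6%) and in 17 of 20 mitosis genes (85.0%). The C/EBP words TTGCGCAA and TTGCGTAA stood in 0 of 40 members and 0.564% of tested genes. Many members are textbook E2F targets, and TTTGAA is known from mitotic promoters, so these shares follow in part from the choice of lists. Words of the same motif may overlap, and a match is a description of the letters only. Stretches of 5 member promoters show the E2F words, and 2 of mitosis promoters show the other class, each 5′ to 3′ on the gene's strand with the words in capitals.
MCM3 (chr6:52284883-52284942, minus strand): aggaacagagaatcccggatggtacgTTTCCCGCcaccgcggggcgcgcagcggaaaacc
MCM6 (chr2:135876560-135876619, minus strand): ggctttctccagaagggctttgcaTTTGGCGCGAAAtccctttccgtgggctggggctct
MCM6 (chr2:135876498-135876557, minus strand): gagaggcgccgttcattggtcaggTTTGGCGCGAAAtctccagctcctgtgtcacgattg
POLA1 (chrX:24693755-24693814, plus strand): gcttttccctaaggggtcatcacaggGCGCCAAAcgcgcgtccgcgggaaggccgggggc
E2F1 (chr20:33686386-33686445, minus strand): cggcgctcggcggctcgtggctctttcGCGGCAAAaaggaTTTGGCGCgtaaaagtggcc
CDT1 (chr16:88803743-88803772, plus strand): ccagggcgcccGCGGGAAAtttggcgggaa
CCNB2 (chr15:59105105-59105134, plus strand): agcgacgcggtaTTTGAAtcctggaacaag
PLK1 (chr16:23678848-23678877, plus strand): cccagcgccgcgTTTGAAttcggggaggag
The CDT1, CCNB2 and PLK1 stretches lie in annotated exons, the E2F1 stretch reaches 19 bases into one, and the others lie outside exons. MCM6 carried the same joined word, TTTGGCGCGAAA, in 2 places, 152 to 141 and 90 to 79 bases before the start. The CDT1 stretch, whose transcript was the highest member in sgCEBPD 3, and the POLA1 stretch, whose transcript was among the lowest, both held an E2F word. Over the 21 members with such a word, the log2 ratio of sgCEBPD 3 to sgCEBPD 1, 2 and 4 had a median of -0.70 (14 at least 1.5-fold lower). Over the 19 without, it was -0.48 (9 at least 1.5-fold lower). Both classes spanned low and high members, from 38.5% to 157% with the word and from 41.5% to 108% without it.

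Among the 13 licensing genes, the MCM ring was low in sgCEBPD 3, ORC was near the other libraries and CDT1 was high. CDT1 (chr16:88803213-88809258, GRCh38), the loader of the ring, stood at 126, 141, 209 and 132 CPM in sgCEBPD 1 to 4, against 111, 108, 130.0 and 128 CPM in sgControl 1 to 4. sgCEBPD 3 was the highest of the 8, at 157% of sgCEBPD 1, 2 and 4, and those 3 overlapped the controls. Its log2 fold change was 0.35 (SE 0.16, adjusted p = 0.45 in edgeR) with 8 libraries and 0.16 (SE 0.073, adjusted p = 0.335 in edgeR) without sgCEBPD 3. GMNN, which encodes the inhibitor geminin, stood at 50.3, 48.3, 29.7 and 47.9 CPM in sgCEBPD 1 to 4, against 54.0, 54.2, 48.8 and 52.0 CPM in sgControl 1 to 4, lowest in sgCEBPD 3.

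MCM4 (chr8:47960185-47978160) encodes the ring subunit that was furthest down in sgCEBPD 3, and it stood at 863, 764, 379 and 753 CPM in sgCEBPD 1 to 4, against 809, 740.4, 827 and 802 CPM in sgControl 1 to 4. MCM6 stood at 346, 344, 167 and 302 CPM in sgCEBPD 1 to 4, against 317, 314, 343 and 343 CPM in sgControl 1 to 4. MCM3 stood at 328, 305, 169 and 288 CPM in sgCEBPD 1 to 4, against 303, 286, 326 and 312 CPM in sgControl 1 to 4. In all 3, sgCEBPD 3 was lowest by far, at 47.8%, 50.5% and 55.1% of the other sgCEBPD libraries, which overlapped the controls. MCM5 stood at 428, 412, 254 and 391 CPM in sgCEBPD 1 to 4, against 415, 371, 429 and 413 CPM in sgControl 1 to 4. MCM2 stood at 276, 273, 188 and 258 CPM in sgCEBPD 1 to 4, against 249, 245, 270.4 and 261 CPM in sgControl 1 to 4. MCM7 stood at 646, 612, 454 and 585 CPM in sgCEBPD 1 to 4, against 586, 537, 619.9 and 616 CPM in sgControl 1 to 4. These subunits were nearer to the rest in sgCEBPD 3, at 61.9%, 69.8% and 73.9%, and still below all other libraries. The 6 proteins form a ring with 1 copy of each, but their transcripts were not even. Per kilobase of merged exons, controls held 183 ± 8.67 CPM for MCM4, 161 ± 10.5 for MCM7, 115 ± 7.01 for MCM5, 95.5 ± 5.25 for MCM3, 88.1 ± 4.24 for MCM6 and 70.7 ± 3.19 for MCM2 (SD, n = 4). On that scale MCM3 and MCM6 differed by less than the sum of their SDs, and the other neighbours in this order by more. Some exon bases of MCM2 and MCM7 overlap genes on the opposite strand, and the strand setting of the counting is not stated. The places of MCM2 and MCM7 in the order are therefore uncertain, in controls and in sgCEBPD 3. MCM3, MCM4, MCM5 and MCM6 share no exon bases with another gene. In sgCEBPD 3 the order began with MCM7 at 124 CPM per kilobase, followed by MCM4 at 87.3, MCM5 at 71.9, MCM3 at 52.7, MCM2 at 51.8 and MCM6 at 44.7.

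ORC binds the origins at which the ring is loaded. ORC3 stood at 30.2, 28.5, 28.4 and 26.4 CPM in sgCEBPD 1 to 4, against 27.6, 26.7, 27.3 and 25.2 CPM in sgControl 1 to 4, with overlapping groups and sgCEBPD 3 at 100.1% of the other sgCEBPD libraries. ORC2 stood at 50.6, 51.7, 47.6 and 55.4 CPM in sgCEBPD 1 to 4, against 47.7, 52.3, 47.2 and 50.5 CPM in sgControl 1 to 4, and there too the groups overlapped. The log2 fold change of ORC3 was 0.087 (SE 0.075, adjusted p = 0.647 in edgeR) with 8 libraries and 0.086 (SE 0.075, adjusted p = 0.658 in edgeR) without sgCEBPD 3. For ORC2 it was 0.054 (SE 0.072, adjusted p = 0.753 in edgeR) and 0.090 (SE 0.064, adjusted p = 0.566 in edgeR). ORC6 was at 96.0% and ORC1, the subunit whose protein cycles, at 80.2% in sgCEBPD 3. CDC6, the ATPase that joins ORC to load the ring, was at 58.4%. In all, 6 of 13 licensing genes were at least 1.5-fold lower in sgCEBPD 3.

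Of the 6 helicase activation genes, 5 were at least 1.5-fold lower in sgCEBPD 3. MCM10, which helps to activate the loaded helicase, stood at 70.3, 66.1, 28.6 and 70.3 CPM in sgCEBPD 1 to 4, against 72.2, 63.9, 71.8 and 71.0 CPM in sgControl 1 to 4. sgCEBPD 3 was at 41.5% of the other sgCEBPD libraries, which lay within the control range. CDC45, a part of the active helicase, was at 47.3%. The 4 GINS subunits ran from 56.5% for GINS2 to 76.1% for GINS3. GINS3 stood at 12.5, 14.8, 10.3 and 13.4 CPM in sgCEBPD 1 to 4, against 13.7, 15.9, 15.5 and 16.3 CPM in sgControl 1 to 4. Its groups overlapped through sgCEBPD 2, which lay above the lowest control. The log2 fold change of GINS3 was -0.27 (SE 0.13, adjusted p = 0.464 in edgeR) with 8 libraries and -0.18 (SE 0.11, adjusted p = 0.472 in edgeR) without sgCEBPD 3.

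The primase and polymerase genes held the 2 lowest members of sgCEBPD 3, POLE2 and POLA1, with 7 of 9 at least 1.5-fold lower. POLE2, the second subunit of polymerase epsilon, stood at 25.8, 23.7, 9.24 and 22.4 CPM in sgCEBPD 1 to 4, against 20.3, 20.5, 26.3 and 21.6 CPM in sgControl 1 to 4. POLA1 (chrX:24693919-24996986), the catalytic subunit of polymerase alpha, stood at 75.5, 72.3, 29.3 and 65.6 CPM in sgCEBPD 1 to 4, against 59.3, 58.5, 66.3 and 73.0 CPM in sgControl 1 to 4. In both, sgCEBPD 3 lay far below, at 38.5% and 41.2% of the other sgCEBPD libraries, and those overlapped the controls. The log2 fold change of POLA1 was -0.083 (SE 0.26, adjusted p = 0.902 in edgeR) with 8 libraries and, in the other direction, 0.15 (SE 0.085, adjusted p = 0.456 in edgeR) without sgCEBPD 3. The primase subunits parted. PRIM1, the catalytic primase subunit, stood at 26.4, 29.6, 17.0 and 26.3 CPM in sgCEBPD 1 to 4, against 26.6, 24.3, 23.0 and 25.2 CPM in sgControl 1 to 4. PRIM2, the large primase subunit, stood at 33.0, 32.4, 31.7 and 25.6 CPM in sgCEBPD 1 to 4, against 32, 29.8, 31.5 and 29.3 CPM in sgControl 1 to 4. sgCEBPD 3 was lowest for PRIM1 (61.9%) and within the range of the others for PRIM2 (105%), so that the 4 genes of the polymerase alpha and primase complex spanned 41.2% to 105%. For PRIM1 the log2 fold change was 0.0033 (SE 0.16, adjusted p = 0.994 in edgeR) with 8 libraries and 0.15 (SE 0.080, adjusted p = 0.429 in edgeR) without sgCEBPD 3.

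POLD3 (chr11:74493851-74669117), an accessory subunit of polymerase delta, had the lowest unadjusted p of the members without sgCEBPD 3 (0.0149). It stood at 59.5, 60.3, 34.9 and 54.2 CPM in sgCEBPD 1 to 4, against 68.5, 62.1, 64.0 and 70.2 CPM in sgControl 1 to 4. Every sgCEBPD library lay below every control, and sgCEBPD 3 was the lowest. Means were 58.0 ± 3.28 CPM in sgCEBPD 1, 2 and 4 (SD, n = 3) and 66.2 ± 3.78 CPM in sgControl (SD, n = 4). The log2 fold change was -0.19 (SE 0.066, adjusted p = 0.192 in edgeR) without sgCEBPD 3 and -0.34 (SE 0.16, adjusted p = 0.456 in edgeR) with it, so the difference did not pass over all genes. POLE, the catalytic subunit of polymerase epsilon, stood at 244, 220.4, 156 and 247 CPM in sgCEBPD 1 to 4, against 242, 279, 285 and 229.8 CPM in sgControl 1 to 4, with sgCEBPD 1, 2 and 4 overlapping the controls. The log2 fold change of POLE was -0.26 (SE 0.15, adjusted p = 0.522 in edgeR) with 8 libraries and -0.13 (SE 0.081, adjusted p = 0.511 in edgeR) without sgCEBPD 3. POLD1, the catalytic subunit of polymerase delta, was at 71.8% in sgCEBPD 3 and its partner POLD2 at 52.7%.

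PCNA (chr20:5114953-5126626), the sliding clamp that holds polymerases on DNA, had the highest level of the members per kilobase, 193 ± 8.72 CPM in controls (SD, n = 4), which differed from MCM4 by less than the sum of their SDs. It stood at 279, 253, 135 and 252 CPM in sgCEBPD 1 to 4, against 287, 269, 278 and 299 CPM in sgControl 1 to 4. sgCEBPD 3 was lowest at 51.7% of the other sgCEBPD libraries, and sgCEBPD 1 lay among the controls. The PCNA log2 fold change was -0.30 (SE 0.20, adjusted p = 0.564 in edgeR) with 8 libraries and -0.12 (SE 0.053, adjusted p = 0.316 in edgeR) without sgCEBPD 3. FEN1, the nuclease that trims flaps of Okazaki fragments, stood at 158, 151, 70.6 and 146 CPM in sgCEBPD 1 to 4, against 151, 163, 151 and 163 CPM in sgControl 1 to 4, with sgCEBPD 3 lowest at 46.6%. RFC4, a subunit of the clamp loader, stood at 49.96, 46.4, 52.0 and 47.9 CPM in sgCEBPD 1 to 4, against 49.5, 42.3, 49.1 and 48.9 CPM in sgControl 1 to 4. For this subunit sgCEBPD 3 was the highest library by a small margin, at 108%, while RFC2, RFC3 and RFC5 were at 60.7%, 64.3% and 80.2%. LIG1, the ligase that seals Okazaki fragments, was at 71.4%. Together 4 of the 7 clamp, loader and flap processing genes were at least 1.5-fold lower.

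The single-strand binding and nucleotide supply genes were, of the 8 roles, nearest to the other sgCEBPD libraries in sgCEBPD 3, with 0 of 3 and 0 of 2 at least 1.5-fold lower. RPA2, a subunit of the RPA complex that coats single-stranded DNA, stood at 98.8, 99.0, 109 and 100.5 CPM in sgCEBPD 1 to 4, against 91.4, 104, 102 and 103 CPM in sgControl 1 to 4. sgCEBPD 3 was the highest at 110.0%, while RPA1 and RPA3 were at 80.0% and 77.6%. RRM1, the large subunit of ribonucleotide reductase, stood at 162, 163, 126 and 153 CPM in sgCEBPD 1 to 4, against 154, 146, 154 and 168 CPM in sgControl 1 to 4. RRM2, its small subunit and the one made mainly in S phase, stood at 228, 248, 191 and 216 CPM in sgCEBPD 1 to 4, against 218, 203, 215 and 256 CPM in sgControl 1 to 4. sgCEBPD 3 was lowest in both, at 78.9% and 83.0%, and the groups overlapped without it.

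All 4 of the regulators of S phase entry were below the other libraries in sgCEBPD 3, and 3 of them at least 1.5-fold. E2F1, an activating E2F factor, stood at 74.6, 86.5, 58.7 and 72.6 CPM in sgCEBPD 1 to 4, against 81.4, 67.5, 80.0 and 72.4 CPM in sgControl 1 to 4, with sgCEBPD 3 at 75.3%. E2F2, its close relative, stood at 36.7, 37.7, 20.2 and 30.5 CPM in sgCEBPD 1 to 4, against 38.4, 35.4, 42.2 and 38.6 CPM in sgControl 1 to 4, with sgCEBPD 3 at 57.9%. In both, sgCEBPD 1, 2 and 4 overlapped the controls. The cyclins E activate CDK2 at the G1/S border. CCNE1 stood at 31.2, 29.1, 18.5 and 34.7 CPM in sgCEBPD 1 to 4, against 32.9, 30.4, 32.2 and 29.7 CPM in sgControl 1 to 4. CCNE2 stood at 15.0, 15.3, 7.76 and 13.0 CPM in sgCEBPD 1 to 4, against 18.8, 15.1, 14.2 and 16.7 CPM in sgControl 1 to 4. sgCEBPD 3 was lowest for both, at 58.3% and 53.8%, and the other sgCEBPD libraries overlapped the controls. For E2F2 the log2 fold change was -0.31 (SE 0.18, adjusted p = 0.533 in edgeR) with 8 libraries and -0.15 (SE 0.091, adjusted p = 0.495 in edgeR) without sgCEBPD 3. For CCNE2 it was -0.34 (SE 0.21, adjusted p = 0.545 in edgeR) and -0.17 (SE 0.12, adjusted p = 0.567 in edgeR). The 3 chromatin genes were all at least 1.5-fold lower in sgCEBPD 3. CHAF1B, a subunit of the histone chaperone CAF-1, stood at 45.1, 45.2, 20.8 and 42.5 CPM in sgCEBPD 1 to 4, against 45.4, 39.5, 41.5 and 44.2 CPM in sgControl 1 to 4, with sgCEBPD 3 lowest at 47.05%. Its partner CHAF1A was at 61.7%, and UHRF1, which guides DNMT1 to newly copied DNA, at 49.6%.

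**Figure D4:**
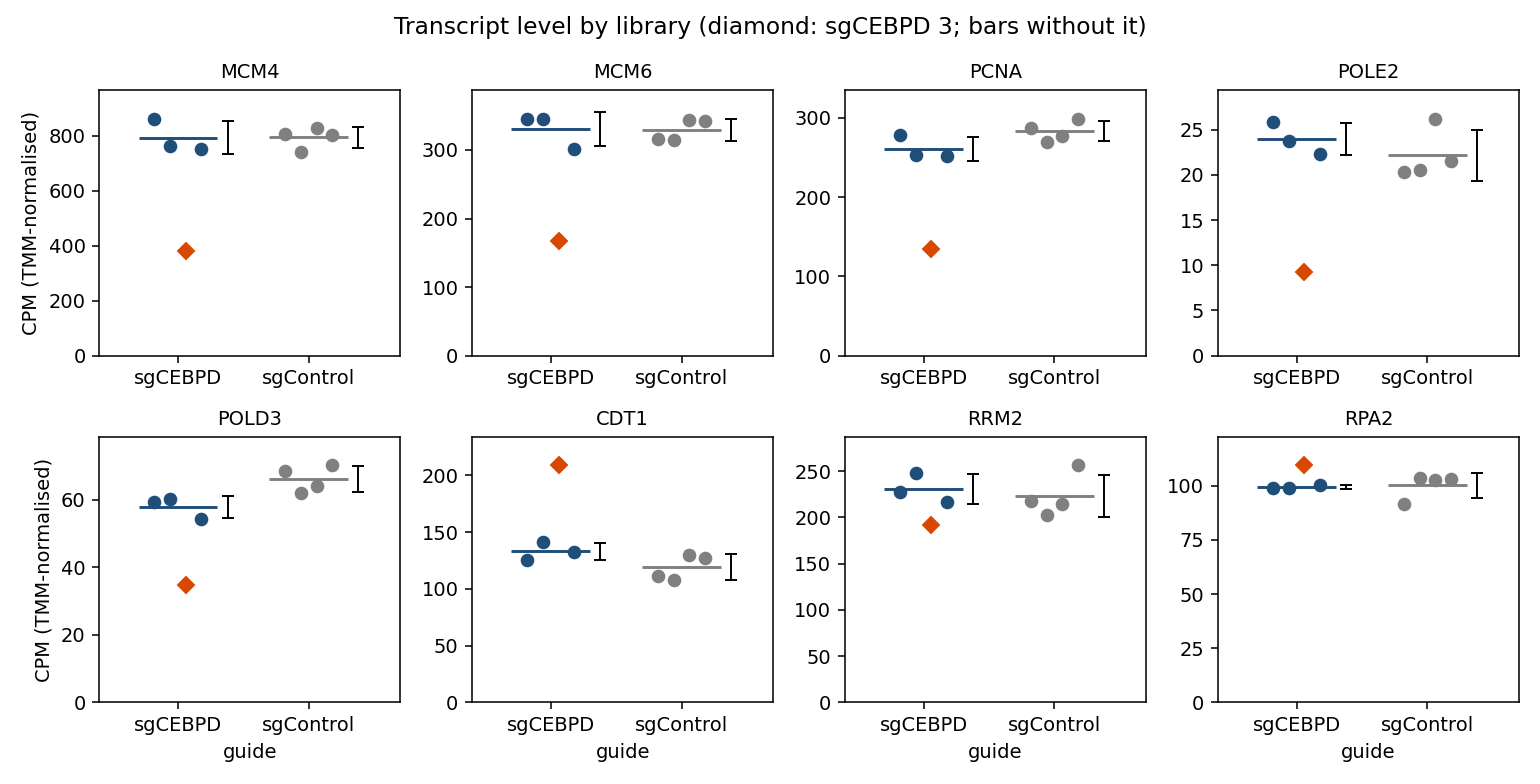
CPM (vertical axis, from 0) of 8 members in each library, sgCEBPD left and sgControl right; circles are libraries, the diamond is sgCEBPD 3, horizontal lines are means and error bars are SDs of sgCEBPD 1, 2 and 4 (n = 3) and of sgControl 1 to 4 (n = 4). MCM4, MCM6, PCNA, POLE2 and POLD3 have the diamond lowest, CDT1 and RPA2 have it highest, and RRM2 has it just below the rest.

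The wider set of 56 replication genes, of which 55 were tested, followed the members in part. Their median in sgCEBPD 3 was 75.5% of sgCEBPD 1, 2 and 4. At least 1.5-fold lower were 20 of 55 (36.4%), against 16.9% of all genes, and 0 were at least 1.5-fold higher, against 16.7%. Below all other libraries were 39, against 34.9% of all genes, and 9 lay above, against 34.8%. edgeR called 0 of the 55 in either comparison. At an unadjusted p under 0.05 in edgeR were 7 with 8 libraries, against 11.4% of all genes, and 8 without sgCEBPD 3, against 15.5%. limma-voom also called 0, and DESeq2 called DCK in both comparisons, where it called 2.12% and 4.24% of all genes. DCK, the kinase that salvages deoxycytidine and activates cytarabine, stood at 69.0, 72.2, 75.1 and 70.0 CPM in sgCEBPD 1 to 4, against 59.7, 58.2, 63.1 and 57.6 CPM in sgControl 1 to 4. Every sgCEBPD library lay above every control, sgCEBPD 3 included. The log2 fold change of DCK was 0.26 (SE 0.062, adjusted p = 0.237 in edgeR) with 8 libraries and 0.24 (SE 0.055, adjusted p = 0.0578 in edgeR) without sgCEBPD 3, and the adjusted p in DESeq2 was 0.00941 and 0.0357. E2F7, a repressive E2F factor, stood at 24.9, 28.5, 36.7 and 24.6 CPM in sgCEBPD 1 to 4, against 19.4, 21.6, 21.8 and 23.3 CPM in sgControl 1 to 4. POLE4, a small subunit of polymerase epsilon, stood at 34.4, 33.3, 29.7 and 31.4 CPM in sgCEBPD 1 to 4, against 36.5, 36.4, 40.0 and 39.6 CPM in sgControl 1 to 4. E2F6, another repressive E2F factor, stood at 43.1, 37.7, 28.5 and 45.3 CPM in sgCEBPD 1 to 4, against 50.7, 47.9, 49.7 and 48.0 CPM in sgControl 1 to 4. E2F7 was higher, and POLE4 and E2F6 lower, in every sgCEBPD library than in every control. Of the 55, 6 did not overlap between the groups with 8 libraries and 6 without sgCEBPD 3, against 9.59% and 14.4% of all genes. For E2F7 the log2 fold change was 0.41 (SE 0.14, adjusted p = 0.355 in edgeR) with 8 libraries and 0.27 (SE 0.089, adjusted p = 0.170 in edgeR) without sgCEBPD 3. For E2F6 it was -0.34 (SE 0.14, adjusted p = 0.412 in edgeR) and -0.22 (SE 0.073, adjusted p = 0.175 in edgeR), and for POLE4 -0.24 (SE 0.077, adjusted p = 0.329 in edgeR) and -0.21 (SE 0.070, adjusted p = 0.186 in edgeR).

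Mitosis genes act after replication, in the division of the copied chromosomes. Of 25 listed, 24 were tested, and their median in sgCEBPD 3 was 98.2% of sgCEBPD 1, 2 and 4, beside 61.9% for the members. At least 1.5-fold lower were 0 of 24, against 16.9% of all genes, and 1 was at least 1.5-fold higher, against 16.7%. Their range was 68.4% to 157%. Below all other libraries were 11 of 24, against 34.9% of all genes, and 8 lay above, against 34.8%. Summed over the 24 genes, the level was 4058 CPM in sgCEBPD 3, against 4367 to 4561 CPM in the other libraries. No mitosis gene was called by edgeR, DESeq2 or limma-voom, with 0 at an unadjusted p under 0.05 with 8 libraries and 2 without sgCEBPD 3, in each tool. In edgeR 11.4% and 15.5% of all genes had such a p. MKI67, the Ki-67 proliferation antigen, stood at 823, 902, 648 and 855 CPM in sgCEBPD 1 to 4, against 931, 979.6, 907 and 920.2 CPM in sgControl 1 to 4, lower in every sgCEBPD library. Its log2 fold change stood at -0.21 (SE 0.10, adjusted p = 0.45 in edgeR) with 8 libraries and -0.12 (SE 0.043, adjusted p = 0.216 in edgeR) without sgCEBPD 3. TOP2A, which untangles sister DNA, stood at 747, 792, 617 and 699 CPM in sgCEBPD 1 to 4, against 699, 687, 708 and 715 CPM in sgControl 1 to 4, with overlapping groups and sgCEBPD 3 lowest. UBE2C, a ubiquitin-conjugating enzyme that works with the anaphase-promoting complex, stood at 61.2, 68.7, 43.3 and 60.2 CPM in sgCEBPD 1 to 4, against 48.0, 56.4, 55.7 and 52.0 CPM in sgControl 1 to 4. Here sgCEBPD 1, 2 and 4 lay above every control and sgCEBPD 3 below, and the log2 fold change was 0.14 (SE 0.14, adjusted p = 0.682 in edgeR) with 8 libraries and 0.26 (SE 0.075, adjusted p = 0.126 in edgeR) without sgCEBPD 3. The kinetochore checkpoint kinase gene BUB1 stood at 176, 168, 186 and 168 CPM in sgCEBPD 1 to 4, against 167, 164, 169 and 159.7 CPM in sgControl 1 to 4. CENPA, the centromeric histone H3 variant, stood at 33.5, 33.7, 28.1 and 35.5 CPM in sgCEBPD 1 to 4, against 36.9, 39.2, 33.2 and 34.6 CPM in sgControl 1 to 4. For both genes the groups overlapped. Of the 24 mitosis genes, 1 did not overlap between the groups with 8 libraries and 2 without sgCEBPD 3, against 9.59% and 14.4% of all genes.

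Of the CDK inhibitors and D cyclins, 10 of 12 were tested. In sgCEBPD 3, 3 were at least 1.5-fold lower and 3 higher, against 16.9% and 16.7% of all genes. edgeR and limma-voom called 0 of the 10, with 1 at an unadjusted p under 0.05 with 8 libraries and 2 without sgCEBPD 3. In edgeR 11.4% and 15.5% of all genes had such a p. The groups did not overlap for 1 of the 10, with or without sgCEBPD 3, against 9.59% and 14.4% of all genes. DESeq2 called CDKN1B in both comparisons, where it called 2.12% and 4.24% of all genes. CDKN1B, which encodes the CDK inhibitor p27, stood at 92.5, 93.8, 93.1 and 99.2 CPM in sgCEBPD 1 to 4, against 73.5, 76.3, 88.3 and 78.8 CPM in sgControl 1 to 4. All 4 sgCEBPD libraries lay above all 4 controls, and the log2 fold change was 0.26 (SE 0.073, adjusted p = 0.287 in edgeR) with 8 libraries and 0.27 (SE 0.066, adjusted p = 0.0776 in edgeR) without sgCEBPD 3, where DESeq2 gave adjusted p of 0.0485 and 0.0285. Without sgCEBPD 3 it also passed in edgeR in 3 alternative runs. These left out sgControl 3, the control with the highest level, used no filter, or took the guide number as a block (adjusted p = 0.0428, 0.0361 and 0.0354). In the other edgeR runs and in limma-voom without sgCEBPD 3 it did not pass, with adjusted p up to 0.213 (edgeR, without sgControl 1). With 8 libraries it passed in no edgeR run, with adjusted p up to 0.697 (without sgControl 1). The D-type cyclin partner CDK4 stood at 131, 123, 97.8 and 124 CPM in sgCEBPD 1 to 4, against 127, 131, 132 and 144 CPM in sgControl 1 to 4, lowest in sgCEBPD 3. CCND3, which encodes cyclin D3, stood at 110.2, 107, 163 and 97.3 CPM in sgCEBPD 1 to 4, against 136, 121, 106 and 132 CPM in sgControl 1 to 4. CDKN2D, which encodes the CDK4 and CDK6 inhibitor p19, stood at 12.5, 21.5, 42.8 and 19.2 CPM in sgCEBPD 1 to 4, against 16.4, 16.1, 14.5 and 16.4 CPM in sgControl 1 to 4. Both were highest in sgCEBPD 3, and without it their groups overlapped. Taking 3 counts as the floor of sgCEBPD 3, CDKN2A, at 0 counts there, was at least 171-fold lower than in sgCEBPD 1, 2 and 4. CDKN1A, which encodes p21 and was picked after its values were seen, stood at 159, 206, 463 and 192 CPM in sgCEBPD 1 to 4, against 215, 259, 147 and 250.5 CPM in sgControl 1 to 4, highest in sgCEBPD 3. The part of these inhibitors in the replication levels was not tested.

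**Figure D5:**
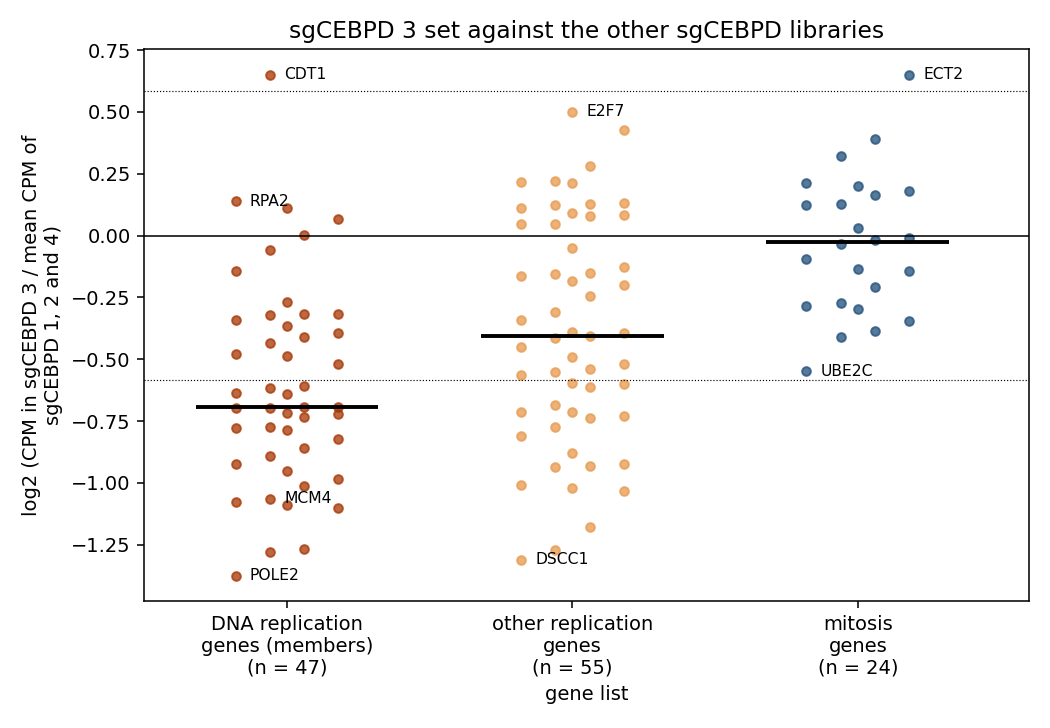
Log2 ratio of CPM in sgCEBPD 3 to the mean CPM of sgCEBPD 1, 2 and 4 (vertical axis) for each tested gene of 3 lists (horizontal axis); points are genes, black bars are medians and dotted lines mark 1.5-fold. The members centre on -0.69, the other replication genes on -0.41 and the mitosis genes on -0.026.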

How the data were processed

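RNA-seq was measured in 4 sgCEBPD and 4 sgControl libraries of OCI-AML5 cells. The deposited table holds unnormalised read counts by gene. Per the labels' protocols, polyadenylated RNA from Trizol extracts was sequenced. Tools named in the submitters' processing notes are HISAT2, FastQC and DESeq2, with the build hg38 and no roles. The counting tool, strand setting and annotation are not stated in the labels, so the assignment of reads to overlapping genes or close copies is uncertain. No label says whether transductions were repeated, so a p-value here reflects the spread among these libraries, which may be technical.

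All genes were fitted in R 4.3.3 with edgeR 4.0.16 (filterByExpr, TMM, robust quasi-likelihood test, Benjamini-Hochberg over all genes tested, threshold 0.05). The 47 members all passed the filter. SEs were derived from the fold change and the F statistic. Principal components used log2 CPM with a prior count of 2. Alternatives were DESeq2 1.42.0, limma-voom (limma 3.58.1), DESeq2-type (RLE) factors, library totals, an adjusted p under 0.01, the unfiltered table, genes averaging 5 CPM or more, blocking by guide number, and omission of single libraries. The functions were tested on simulated data. Exon lengths and gene positions are from GENCODE release 29 (GRCh38), and promoters from RefSeq (GRCh38.p14).

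Members, gene lists, motifs and the comparison without sgCEBPD 3 were chosen with earlier results of these data known. Values in every library are given for the members with the 4 lowest p and the 3 largest fold changes in each direction and comparison, the 5 lowest and 5 highest in sgCEBPD 3, and MCM2 to MCM7, PCNA, RRM1, RRM2, E2F1, CCNE1 and CCNE2. Of each other list, the 3 genes with the lowest p in each comparison qualified. GMNN, CD3D, CDKN1A and CDKN2A were added after their values were seen.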

Additional observations from a re-analysis of the deposited data

Results flagged for a closer look

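In groups of 4 libraries, a value was taken up when the gap to its nearest neighbour over the group's range exceeded Dixon's 95% critical value. For independent groups chance would give about 1 in 20, or 4.7 of the 94 examined over the 47 members. These 94 groups share the same 8 libraries and are not independent, so that number sets no test, and 12 such groups were found. In 9 of them the library was sgCEBPD 3, which lay low in 8: GMNN at 29.7 CPM, MCM10 at 28.6 CPM, POLA2 at 6.78 CPM, POLD2 at 87.0 CPM, RFC2 at 40.3 CPM, FEN1 at 70.6 CPM, CHAF1A at 106 CPM and CHAF1B at 20.8 CPM. RPA2 lay high there, at 109 CPM, against 98.8 to 100.5 CPM in sgCEBPD 1, 2 and 4. The other 3 were single controls on the low side: MCM10 at 63.9 CPM and RFC4 at 42.3 CPM in sgControl 2, and RPA2 at 91.4 CPM in sgControl 1. These control values are small departures, since the other controls held 71.0 to 72.2 CPM for MCM10, 48.9 to 49.5 CPM for RFC4 and 102 to 104 CPM for RPA2. The libraries of sgCEBPD other than sgCEBPD 3 gave none. In most members sgCEBPD 3 widened the range of that group, so the others could hardly reach the limit, and nothing is concluded about them.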

How the results depend on the processing

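In every alternative run, 0 members passed the threshold in either comparison. The number of all genes called, 11 with 8 libraries, was 292 in DESeq2, 20 without the filter and 1 at an adjusted p under 0.01. It ran from 0 (without sgCEBPD 2) to 283 (without sgCEBPD 3) with single libraries left out, with 6 without sgCEBPD 1 or sgControl 2 and 1 without sgControl 1, 3 or 4. Without sgCEBPD 3 it was 283, against 596 in DESeq2 and 40 at an adjusted p under 0.01, and 66 (without sgControl 1) to 312 with a further library left out. The cause of these differences was not tested. Whether the guide number pairs the libraries could not be decided. The check took in sgCEBPD 3, whose distance from the rest can mask a pairing. In it, the deviations of same-numbered libraries correlated at 0.030, 0.058, -0.082 and -0.042. There, 1 of 4 sgCEBPD and 2 of 4 sgControl libraries correlated best with their own guide number. With that number as a replicate block, members called stayed at 0, all genes called were 1 with 8 libraries and 352 without sgCEBPD 3, and the median of the members was -0.16 and 0.022. In sgCEBPD 3, CPM of library totals put the median member at -0.77, with all genes at -0.081 against -0.0074, and PRIM2 and ORC3 just below zero. With 1 library carrying that pattern, its spread between cultures or guides is unknown.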
